A study of Mus musculus with 12 samples.

Results

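The Hippo pathway, its YAP and TAZ effectors, their TEAD partner and their best known targets were followed through 10 genes in cardiomyocyte RNA from mouse hearts. The genes were Yap1, Wwtr1, Tead1, Vgll4, Lats1, Lats2, Ctgf, Cyr61, Amotl2 and Ajuba. They were found by symbol in the deposited count table, which lists 49568 genes, and all 10 were among the 14712 genes with enough reads to be tested. Of the 10, Ctgf stood out: its reads were 6.99-fold higher after TAC than after sham in dKO hearts, and the other 9 genes did not pass the test there, which 7.39% of all genes tested did.

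The study crossed 2 genotypes with 2 surgeries in male mice, with 3 libraries in each of 4 groups: dKO TAC, dKO sham, control TAC and control sham. TAC is transverse aortic constriction, which makes the left ventricle pump against a raised pressure, and sham mice were operated on without it. The dKO mice were MHC-MerCreMre/+; Mrtf-a-/-; Mrtf-bflox/flox. They lacked myocardin-related transcription factor A in every cell, whereas factor B was floxed and was deleted by a tamoxifen-inducible Cre driven by the alpha-MHC promoter of cardiomyocytes. Control mice were alphaMHC-MerCreMre/+, so both genotypes carried the inducible Cre. Both genotypes also received tamoxifen, at 8 weeks, in 3 daily doses of 30 ug/g. Cells were isolated at 11 weeks, 7 days after surgery. The sample labels place the surgery at 10 weeks and the series' design text at 8 weeks. The labels do not say whether each library came from 1 animal, so the p-values measure the spread between these libraries only.

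In the Hippo pathway the kinases MST1 and MST2 activate the kinases LATS1 and LATS2, which phosphorylate the coactivators YAP and TAZ and keep them out of the nucleus. When LATS is inactive, YAP and TAZ enter the nucleus and drive transcription with TEAD factors. The pathway is known in the heart for restraining cardiomyocyte proliferation, and it responds to mechanical tension and to the state of the actin cytoskeleton, which also controls the MRTF coactivators. Much of its regulation is by phosphorylation and location of the proteins, neither of which RNA reads measure.

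Totals per library lay between 20082000 and 29675212 counts. Levels below are CPM, read counts scaled to a common library total with TMM factors, and a floor of 3 counts stood at 0.0935 to 0.184 CPM, for counting error only. Mkl1, which encodes MRTF-A, had 2.503, 2.93 and 2.22 CPM in dKO TAC and 2.15, 2.88 and 3.20 CPM in dKO sham, against 9.32, 16.0 and 15.6 CPM in control TAC and 7.59, 11.4 and 8.89 CPM in control sham. Every dKO library was below every control library. The log2 changes of Mkl1 in dKO against control were -2.42 after TAC and -1.75 after sham (Benjamini-Hochberg adjusted edgeR quasi-likelihood p 0.00182 and 0.0409). The call after sham was lost in 11 of 12 fits that left out 1 library, with edgeR adjusted p up to 0.160, and held only without control TAC replicate 1. Mkl2, which encodes MRTF-B, did not pass the test in dKO against control, with log2 changes of -0.54 after TAC and -0.88 after sham (Benjamini-Hochberg adjusted edgeR quasi-likelihood p 0.518 and 0.507) and -0.71 averaged over the surgeries (adjusted edgeR p 0.0887). Its levels were 28.1, 18.1 and 24.5 CPM in dKO TAC and 15.2, 26.5 and 23.9 CPM in dKO sham, against 35.98, 30.1 and 37.0 CPM in control TAC and 44.1, 32.6 and 44.1 CPM in control sham, so that every dKO library was again below every control library. The sources used here do not give the deleted stretch of Mkl2, so reads over the whole gene may not reflect it. The 8 cardiomyocyte markers summed to 35670 to 96740 CPM per library, and none was at 0.

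Replicate 2 of dKO TAC and replicate 1 of dKO sham stood apart from the other libraries. Mitochondrially encoded genes took 15.32% and 16.51% of their counts, against 23.16% to 32.57% in the other 10 libraries. Across genes, their deviation from their own group correlated negatively with exon length, with Spearman's rho of -0.598 in dKO TAC replicate 2 and -0.621 in dKO sham replicate 1. Several of the 10 genes have long transcripts and were low in these libraries. In dKO TAC replicate 2, Tead1 was at 0.425 times the mean of the other dKO TAC libraries, Lats1 at 0.665 times and Yap1 at 0.685 times, whereas Cyr61 was at 1.52 times. Ctgf, whose exons span only 2861 nt, was also low there, at 0.663 times. In dKO sham replicate 1, Lats2 was at 0.288 times the mean of the other dKO sham libraries, Tead1 at 0.392 times, Vgll4 at 0.406 times, Lats1 at 0.419 times and Wwtr1 at 0.529 times, whereas Ctgf was at 1.79 times. Counts of called genes of the pathway and marker lists after TAC in dKO are therefore given with and without these libraries.

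**Figure D1:**
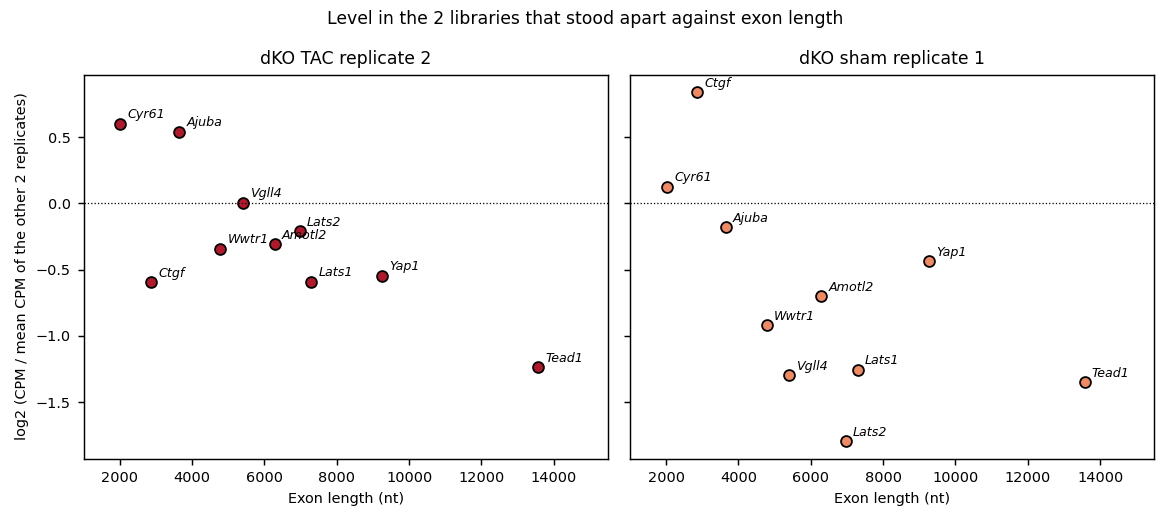
Each point is 1 of the 10 genes, with the total exon length in nucleotides on the x axis and, on the y axis, the log2 ratio of its CPM to the mean of the other 2 libraries of its group, for dKO TAC replicate 2 (left) and dKO sham replicate 1 (right). Cyr61, with the shortest exons at 2019 nt, lies above 0 in both, and Tead1, with the longest exons at 13570 nt, lies well below 0 in both.

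Per kilobase of exon, the 10 genes spanned a wide range of levels. In control sham hearts Cyr61 was highest at 230.5 RPKM, which is the CPM per kilobase of exon, and Ctgf followed at 44.1 RPKM. Both encode secreted matricellular proteins. Wwtr1, which encodes TAZ, had 14.0 RPKM, Tead1 11.3, Amotl2 10.8 and Yap1 8.41 RPKM. The LATS kinases and the nuclear cofactor gene Vgll4 were lower, with 5.19 RPKM for Lats2, 3.07 for Vgll4 and 2.75 for Lats1, and Ajuba was lowest at 2.51 RPKM. In this order, Tead1 and Amotl2, Vgll4 and Lats1, and Lats1 and Ajuba had overlapping values over the 3 libraries. With the length of the longest transcript in place of all exons, a setting added after the data were seen, Cyr61 and Ctgf kept their ranks and Wwtr1 ranked 6 rather than 3 in control sham. The top of the order differed between the groups: Ctgf stood first in dKO TAC, with 208.6 RPKM against 184.6 for Cyr61, but these 2 genes overlapped there, as they did in control TAC. In dKO sham and control sham Cyr61 was above Ctgf in every library.

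**Figure D2:**
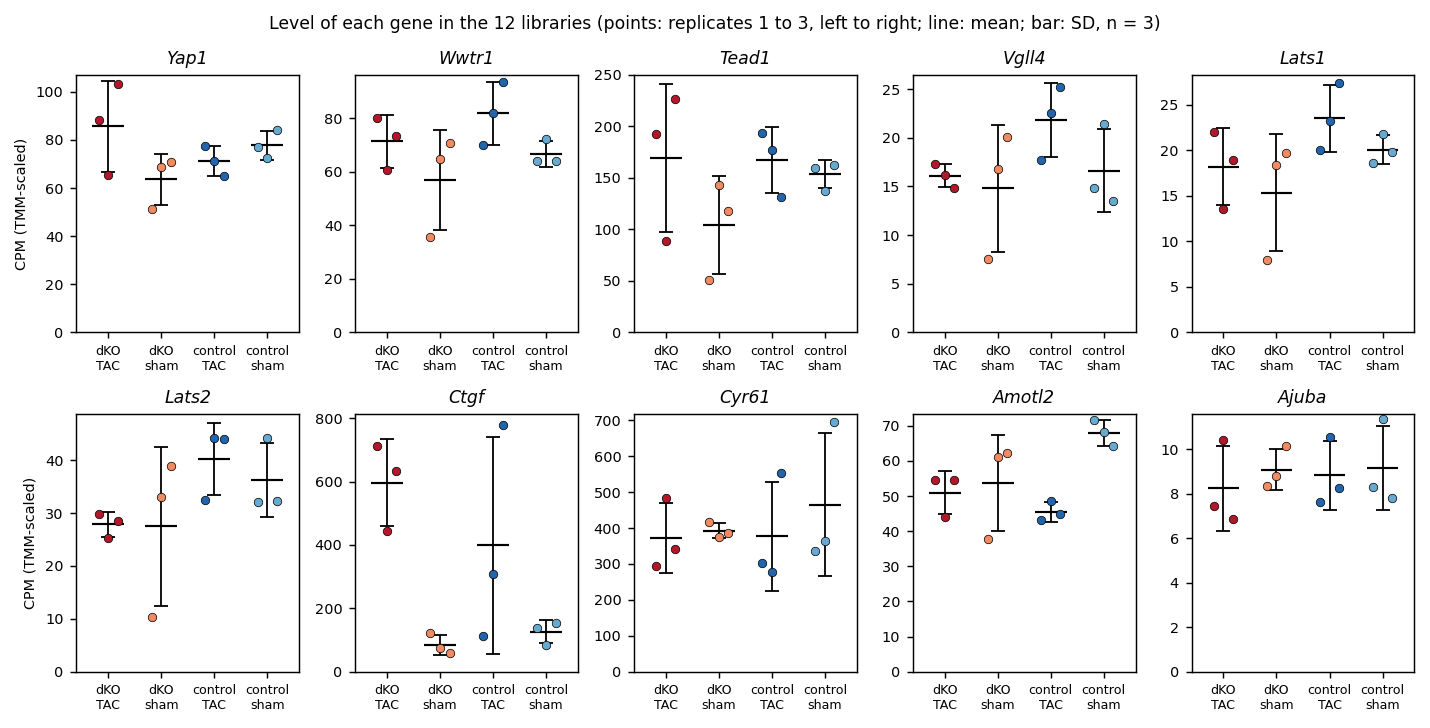
Each panel gives 1 gene, with its level in CPM on an axis from 0, and each point is a library of dKO TAC, dKO sham, control TAC or control sham, with the mean as a line and the SD as a bar (n = 3). Ctgf is high in all 3 dKO TAC libraries and scattered in control TAC, Amotl2 is lower in control TAC than in control sham, and the other 8 genes overlap between TAC and sham in both genotypes.

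Ctgf was the gene of the 10 that responded most to TAC. Ctgf (Ccn2 in current nomenclature; GRCm38, chr10:24595442-24598683, plus strand) encodes connective tissue growth factor, a matricellular protein associated with fibrosis and a classical YAP-TEAD target. It had 712, 445 and 633 CPM in dKO TAC hearts, against 121, 75.1 and 60.1 CPM in dKO sham hearts. All 3 dKO TAC libraries were above all 3 dKO sham libraries. The means were 597 ± 137 CPM in dKO TAC and 85.4 ± 31.8 CPM in dKO sham (SD, n = 3 each). Ctgf rose by 2.80 on the log2 scale, with a 95% interval of 1.58 to 4.03 (Benjamini-Hochberg adjusted edgeR quasi-likelihood p 0.0142).

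In control hearts Ctgf had 112, 308 and 778 CPM after TAC, against 138, 85.4 and 155 CPM after sham. Replicate 1 of control TAC lay within the sham range and replicates 2 and 3 lay above it, so the groups overlapped. The log2 change was 1.66, with a 95% interval of 0.48 to 2.84, and it did not pass the test (Benjamini-Hochberg adjusted edgeR quasi-likelihood p 0.139). Averaged over the genotypes, Ctgf rose by 2.23 on the log2 scale, which is 4.70-fold (adjusted p 0.00335 in the same edgeR fit). The interaction, the response to TAC in dKO less that in control, was 1.14 on the log2 scale, with a 95% interval of -0.49 to 2.77 and an edgeR adjusted p of 0.841, so a difference between the genotypes was not shown. Without dKO TAC replicate 1 the edgeR adjusted p of Ctgf in dKO became 0.0618 at a log2 change of 2.66. Without control TAC replicate 1, the change in control became 2.10 with an edgeR adjusted p of 0.0130, and without control TAC replicate 3 it was 0.74. Excluding both libraries that stood apart, Ctgf rose by 3.31 in dKO (edgeR adjusted p 0.0229).

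Some markers of fibroblasts, which also make Ctgf, rose after TAC as well. Of 10 fibroblast markers 5 rose after TAC in dKO and 5 in control, and none was at 0 in any library, beside 4.2% of all genes called higher in dKO and 1.9% in control. In both genotypes these were Postn, Mfap5, Col1a1, Col1a2 and Col3a1. Lum, Tcf21, Dcn, Pdgfra and Dpt did not pass the test. Dpt had 29.3, 36.7 and 26.2 CPM in dKO TAC, against 31.4, 32.8 and 40.3 CPM in dKO sham, and Dcn, Pdgfra and Tcf21 also overlapped in both genotypes. Excluding the libraries that stood apart, 2 of the 10 rose in dKO, Postn and Mfap5, beside 5.93% of all genes. The summed level of the 10 was 4081, 2970 and 3489 CPM in dKO TAC, against 326, 584 and 738 CPM in dKO sham. It was 1190, 3788 and 10230 CPM in control TAC, against 472, 902 and 431 CPM in control sham. The order of the libraries by Ctgf was the order by the fibroblast sum within dKO TAC and within control TAC, but within dKO sham and within control sham it ran the opposite way. The markers that gave most of the sum were Postn, Col3a1, Col1a2 and Col1a1; Col3a1 had 1106, 901 and 956 CPM in dKO TAC against 52.4, 127 and 167 CPM in dKO sham. The sum of 8 cardiomyocyte markers was also lower in every dKO TAC library, at 37030, 38540 and 43060 CPM, than in every dKO sham library, at 96740, 53910 and 47730 CPM. In control it overlapped, at 60180, 42990 and 35670 CPM after TAC, against 62660, 46480 and 62480 CPM after sham. The 8 markers did not all move alike after TAC in dKO. Ryr2, Ttn and Actn2 had positive log2 changes there, of 0.59, 0.48 and 0.05. Those of Tnni3, Myl2, Myh6, Pln and Tnnt2 were negative, at -1.65, -1.06, -0.91, -0.61 and -0.51. None of the 8 was called by edgeR in dKO, and 4 had an unadjusted p under 0.05, as had 4064 of all 14712 genes. DESeq2 called 4 of the 8 lower in dKO. Excluding the libraries that stood apart edgeR called 1 lower, Tnni3, beside 4.66% of all genes. In control none was called by edgeR, and 1 had an unadjusted p under 0.05, as had 2480 of all 14712 genes. DESeq2 called Pln lower in control. Tnni3 and Pln were called lower in TAC averaged over the genotypes, at -1.09 and -0.70 (edgeR adjusted p 0.0433 and 0.0184). In that comparison 7.08% of all genes were called lower. The numbers of all genes that DESeq2 called are given with the processing settings below. The part of fibroblast RNA, or of the lower cardiomyocyte sum, in the Ctgf change was not tested. In such bulk samples a different number of cells of a type and a different amount of RNA per cell cannot be told apart.

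**Figure D3:**
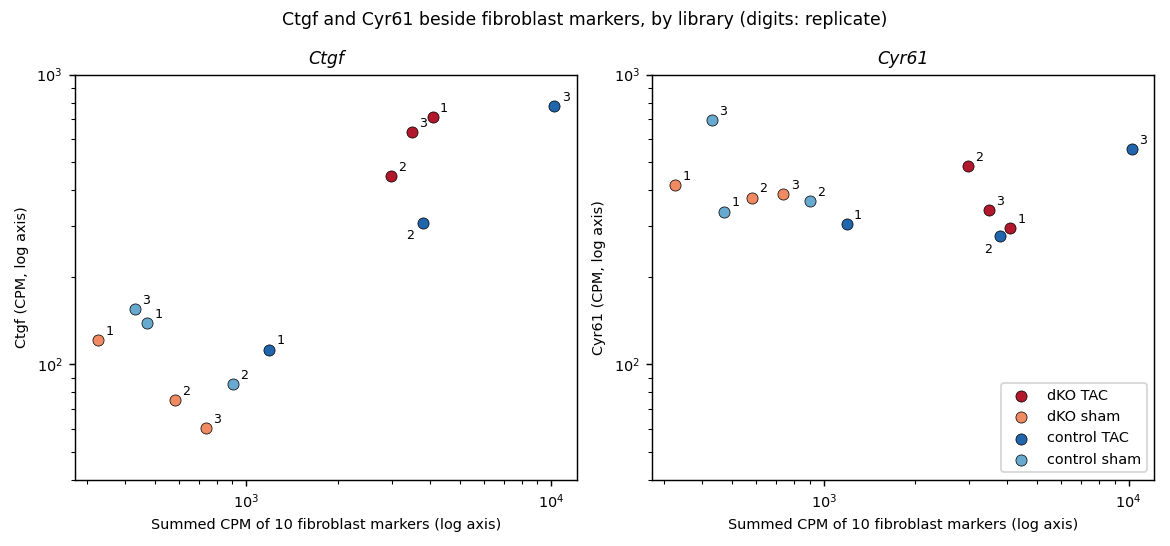
Each point is a library, with the summed CPM of 10 fibroblast markers on the x axis and the CPM of Ctgf (left) or Cyr61 (right) on the y axis, both log axes, coloured by group and numbered by replicate. The 3 dKO TAC libraries and control TAC replicates 2 and 3 lie to the upper right for Ctgf, whereas Cyr61 stays between 276 and 695 CPM over the whole range of marker sums.

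The 3 genes whose log2 CPM followed Ctgf most closely over the 12 libraries, of 9691 genes compared, were Rnf19b, Sardh and Sirpa, with Pearson's r of 0.948, 0.946 and 0.944. The libraries share the group differences, so these values describe a likeness and carry no test. Reads of Ctgf can be shared with Gm15270, an opposite-strand transcript that overlaps 665 nt of its exons, if strand was not used in counting. Gm15270 had at most 133 counts in a library.

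Cyr61, the other matricellular target of the set (Ccn1 in current nomenclature; GRCm38, chr3:145646976-145649981, minus strand), did not follow Ctgf. It had 295, 482 and 341 CPM in dKO TAC, against 416, 376 and 386 CPM in dKO sham. In control hearts it had 304, 276 and 552 CPM after TAC, against 337, 365 and 695 CPM after sham. The groups overlapped in both genotypes, and 1 control library in each surgery group, replicate 3, was higher than the other 2. The log2 changes with TAC were -0.07 in dKO, with a 95% interval of -0.79 to 0.64, and -0.30 in control, with an interval of -1.02 to 0.41 (edgeR adjusted p 0.902 and 0.737). These intervals do not include a 2-fold rise.

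Amotl2 encodes angiomotin-like 2, a junctional scaffold that holds YAP in the cytoplasm and is itself a YAP target (GRCm38, chr9:102716672-102733418, plus strand). It had 43.1, 48.5 and 44.9 CPM in control TAC hearts, against 71.7, 68.1 and 64.4 CPM in control sham hearts. The control groups did not overlap, and Amotl2 was the only one of the 10 genes that was separated in this comparison; 10.8% of all genes tested were lower, and 11% higher, in every control TAC library than in every control sham library. The log2 change was -0.58, with a 95% interval of -0.996 to -0.166, but the adjusted p of 0.142 (edgeR quasi-likelihood test, Benjamini-Hochberg) missed the threshold. In dKO hearts Amotl2 had 54.5, 44.0 and 54.5 CPM after TAC, against 37.9, 61.0 and 62.2 CPM after sham, and the log2 change was -0.08. The low dKO sham value was that of replicate 1, a library that stood apart. Without that library alone, Amotl2 passed the test in control (edgeR adjusted p 0.0240) and averaged over the genotypes, where its log2 change was -0.43 (edgeR adjusted p 0.00822). Excluding both such libraries, Amotl2 passed the test in control at the same log2 change of -0.58 (edgeR adjusted p 0.0155), and averaged over the genotypes at -0.38 (edgeR adjusted p 0.00565). The difference between the genotypes in the TAC effect was 0.50, with a 95% interval of -0.08 to 1.09 and an edgeR adjusted p of 0.841.

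Ajuba encodes a LIM-domain protein that binds and inhibits LATS kinases (GRCm38, chr14:54567472-54577558, minus strand), and it was the least variable of the 10, with a coefficient of variation of 16.2% over the 12 libraries. It had 7.44, 10.4 and 6.86 CPM in dKO TAC, 8.36, 8.78 and 10.1 CPM in dKO sham, 7.64, 10.6 and 8.26 CPM in control TAC and 8.32, 11.3 and 7.81 CPM in control sham. Its groups overlapped in each comparison. Its transcript holds stretches of 126 to 157 nt that match other transcripts at 95% to 96.6% identity, so a part of its reads may have been shared.

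The promoters of the 10 genes were read for the TEAD motif, GGAATG on either strand (CATTCC on the other). TEAD factors, and through them YAP and TAZ, are known to bind this sequence. RefSeq windows on GRCm38.p6, from 250 bases before to 50 after a transcript start, matched 8 of the 10 genes, with 10 windows. The motif was in at least 1 window of 7 of the 8 genes, and it was in 14.7% of all 32851 windows. The former counts genes and the latter windows. Wwtr1 and Lats2 had 2 windows each, and window 2 of Lats2 held no match. No window of the 8 genes held a CArG box, the element bound by SRF, the partner of the MRTFs, and 1.63% of all windows held one. Tead1 and Ctgf had no window. The windows of the 3 targets and inhibitors described above and of Ankrd1, the further target with the largest log2 change after TAC in dKO, are printed 5′ to 3′ on the gene's strand, with TEAD motifs in capitals. They lie at chr3:145649936-145650235 (minus strand) for Cyr61, chr9:102717554-102717853 (plus) for Amotl2, chr14:54577612-54577911 (minus) for Ajuba and chr19:36119795-36120094 (minus) for Ankrd1.
Cyr61: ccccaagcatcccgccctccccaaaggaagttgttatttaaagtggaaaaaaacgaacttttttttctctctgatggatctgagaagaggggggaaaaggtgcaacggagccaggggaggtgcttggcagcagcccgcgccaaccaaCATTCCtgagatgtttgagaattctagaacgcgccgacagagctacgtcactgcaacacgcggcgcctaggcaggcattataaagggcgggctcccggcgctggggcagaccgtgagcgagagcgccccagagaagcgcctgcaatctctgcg
Amotl2: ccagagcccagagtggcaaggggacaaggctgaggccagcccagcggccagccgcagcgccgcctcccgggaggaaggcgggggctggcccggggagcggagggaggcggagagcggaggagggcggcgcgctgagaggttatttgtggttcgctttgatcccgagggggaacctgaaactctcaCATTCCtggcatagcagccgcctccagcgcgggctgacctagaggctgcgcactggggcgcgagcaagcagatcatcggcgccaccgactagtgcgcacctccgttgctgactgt
Ajuba: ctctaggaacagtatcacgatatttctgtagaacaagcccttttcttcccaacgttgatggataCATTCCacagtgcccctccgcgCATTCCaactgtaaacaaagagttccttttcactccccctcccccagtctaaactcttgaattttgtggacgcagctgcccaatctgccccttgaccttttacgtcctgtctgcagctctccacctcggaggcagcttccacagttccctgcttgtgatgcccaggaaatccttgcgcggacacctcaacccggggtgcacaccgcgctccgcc
Ankrd1: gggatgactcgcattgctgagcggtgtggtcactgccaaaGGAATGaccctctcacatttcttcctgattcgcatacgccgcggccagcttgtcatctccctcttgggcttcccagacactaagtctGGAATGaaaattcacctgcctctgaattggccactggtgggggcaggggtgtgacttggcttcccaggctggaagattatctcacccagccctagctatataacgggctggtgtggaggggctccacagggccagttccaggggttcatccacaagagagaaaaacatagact
The motif began at -103 from the start in Cyr61, at -65 in Amotl2, at -186 and -164 in Ajuba and at -210 and -123 in Ankrd1. It was present in a gene that rose, in genes whose groups overlapped and in one that was low in control TAC. A match describes the letters of the window and says nothing of binding.

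Yap1 and Wwtr1 encode the coactivators YAP and TAZ. Yap1 (GRCm38, chr9:7931999-8004596, minus strand) had 88.2, 65.6 and 103 CPM in dKO TAC, against 51.5, 68.7 and 70.7 CPM in dKO sham. It had 77.6, 71.1 and 64.9 CPM in control TAC, against 76.9, 72.3 and 84.3 CPM in control sham. The dKO groups overlapped through dKO TAC replicate 2, which stood apart, and the log2 change was 0.43 in dKO, with a 95% interval of 0.01 to 0.84, against -0.13 in control (edgeR adjusted p 0.172 and 0.825). Excluding both libraries that stood apart, the change in dKO was 0.46 with an edgeR adjusted p of 0.0552. The genotype difference in the TAC effect was 0.56, with a 95% interval of -0.03 to 1.14 (edgeR adjusted p 0.841).

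Wwtr1 (GRCm38, chr3:57455649-57575910, minus strand) had 80.0, 60.5 and 73.4 CPM in dKO TAC and 35.8, 64.6 and 70.7 CPM in dKO sham, against 70.1, 81.7 and 93.4 CPM in control TAC and 63.8, 72.4 and 64.0 CPM in control sham. Its log2 changes with TAC were 0.32 in dKO and 0.29 in control, with intervals that included 0. The upper ends of the intervals lay at 0.83 in dKO and 0.80 in control.

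Tead1 encodes the DNA-binding partner of YAP and TAZ that is prominent in heart muscle (GRCm38, chr7:112679318-112906807, plus strand). It had 192, 88.9 and 226 CPM in dKO TAC, against 51.1, 143 and 118 CPM in dKO sham. The dKO groups overlapped, and the 2 low values were those of the libraries that stood apart. Without them 2 libraries were left in each dKO group, too few to read a separation of the groups from. Control hearts had 193, 177 and 132 CPM after TAC, against 160, 138 and 162 CPM after sham. The log2 changes were 0.70 in dKO and 0.13 in control (edgeR adjusted p 0.244 and 0.926), and excluding those libraries the change in dKO was 0.68 with an edgeR adjusted p of 0.0535. Averaged over the genotypes and excluding both libraries that stood apart, Tead1 rose by 0.40 (edgeR adjusted p 0.0461), against an adjusted p of 0.299 with them.

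Vgll4 encodes a cofactor that competes with YAP for TEAD (GRCm38, chr6:114860628-114969994, minus strand). It had 17.3, 16.1 and 14.9 CPM in dKO TAC, against 17.7, 22.5 and 25.2 CPM in control TAC, so each dKO library was below each control library after TAC. The log2 change was -0.44, with a 95% interval of -1.10 to 0.22 (edgeR adjusted p 0.759). In the sham groups the values overlapped, at 7.50, 16.8 and 20.1 CPM in dKO sham against 14.8, 21.5 and 13.5 CPM in control sham.

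Lats1 (GRCm38, chr10:7681214-7716460, plus strand) and Lats2 (GRCm38, chr14:57689662-57758388, minus strand) encode the kinases that inactivate YAP and TAZ. Lats1 had 22.02, 13.6 and 19.0 CPM in dKO TAC and 7.99, 18.5 and 19.7 CPM in dKO sham, against 20.03, 23.3 and 27.4 CPM in control TAC and 18.6, 21.8 and 19.8 CPM in control sham. Lats2 had 29.8, 25.2 and 28.5 CPM in dKO TAC, against 32.5, 44.3 and 43.9 CPM in control TAC, with no overlap. In sham hearts it had 10.4, 33.1 and 39.0 CPM in dKO, against 32.0, 44.3 and 32.3 CPM in control, which overlapped. The log2 change of Lats2 in dKO against control after TAC was -0.53, with a 95% interval of -1.31 to 0.25 (edgeR adjusted p 0.750). Lats2 shares 2955 nt of exon with Gm49361 on the same strand, and no gene of that name was in the deposited counts.

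In the test of TAC against sham in dKO, 1 of the 10 genes, Ctgf, was called at an adjusted p under 0.05; in the same comparison 7.39% of all genes tested were called, 4.2% higher and 3.19% lower. Ctgf was also the 1 gene with no overlap, where 16.2% of all genes were higher and 14.5% lower without overlap. In TAC against sham in control, 0 of the 10 were called by edgeR, beside 2.25% of all genes, 1.9% higher and 0.347% lower. An unadjusted edgeR p under 0.05 was found there for 2 of the 10 and for 2480 of all 14712 genes. DESeq2 called 1 of the 10 there, Ctgf, and the number of all genes it called is given with the processing settings below. Averaged over the genotypes 1 of the 10 was called, Ctgf, beside 16.6% of all genes. The median log2 change with TAC was 0.18 in dKO and 0.14 in control over the 10 genes, against -0.0062 and 0.0006 over all genes.

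**Figure D4:**
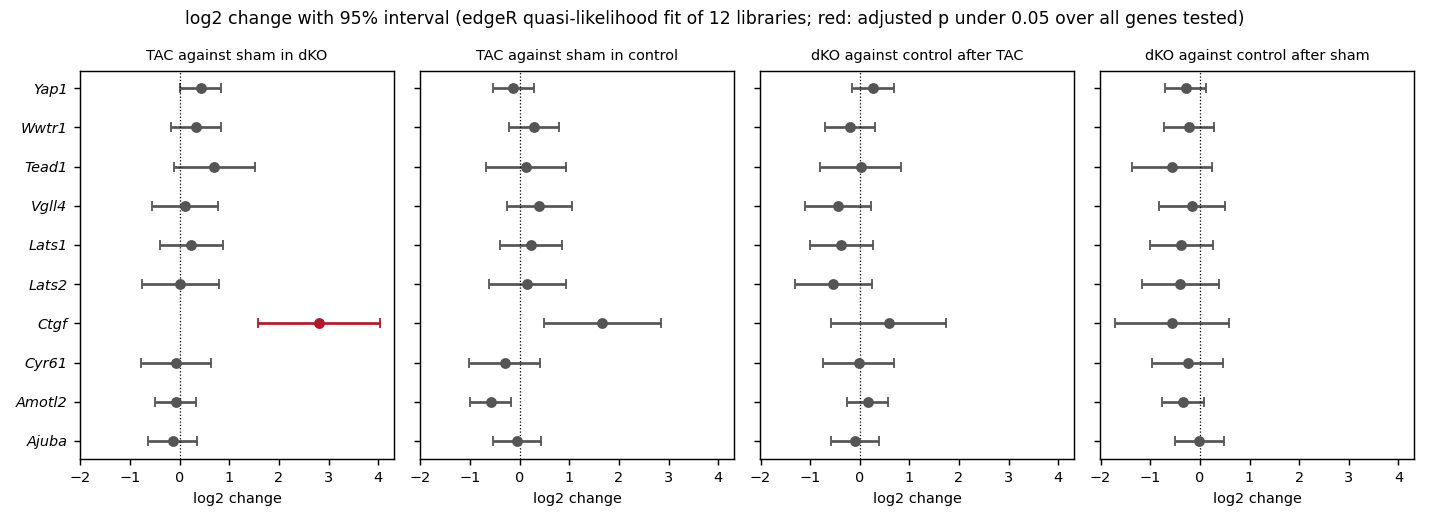
Points are log2 changes from the edgeR fit with 95% intervals for each of the 10 genes in 4 comparisons, from left to right TAC against sham in dKO, TAC against sham in control, dKO against control after TAC and dKO against control after sham, with an adjusted p under 0.05 in red. The red point is Ctgf in dKO at 2.80, and the intervals of all 10 genes include 0 in both dKO against control panels.

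Between the genotypes none of the 10 genes passed the test. In dKO against control after TAC, 0 of the 10 were called by edgeR, 0 had an unadjusted p under 0.05 and DESeq2 called 0, while 0.428% of all genes were called. Vgll4 and Lats2 were lower in every dKO TAC library than in every control TAC library, where 7.79% of all genes were lower and 9.8% higher without overlap. In dKO against control after sham, 0 of the 10 were again called by edgeR, 0 had an unadjusted p under 0.05 and DESeq2 called 0, while 0.068% of all genes were called. Yap1 and Amotl2 were lower without overlap after sham, beside 9.42% of all genes that were lower and 9.27% that were higher.

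All 10 estimates in dKO against control after sham were negative, with a median of -0.31 on the log2 scale against 0.0172 over all genes. Excluding the 2 libraries that stood apart, 3 were positive and 7 negative, with a median of -0.11. After TAC 4 were positive, with a median of -0.06. Ctgf had log2 changes of 0.58 after TAC and -0.56 after sham, with intervals of -0.57 to 1.73 and -1.72 to 0.59 (edgeR adjusted p 0.844 and 0.623). Averaged over the surgeries, 0 of the 10 were called by edgeR or by DESeq2 and 0 had an unadjusted p under 0.05, beside 0.585% of all genes called. In the interaction 0 of the 10 were called by edgeR or by DESeq2 and 0 had an unadjusted p under 0.05. Among all genes edgeR called 0%, 697 genes had an unadjusted p under 0.05 and DESeq2 called 8.

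Other genes of the pathway were counted from lists that were chosen with earlier results of these data known. Among 17 upstream and kinase genes, 2 rose and none fell after TAC in dKO, beside 4.2% of all genes higher and 3.19% lower. In control none passed the test with edgeR or DESeq2. An unadjusted edgeR p under 0.05 was found there for 2 of the 17, beside 2480 of all 14712 genes. The median log2 change of the 17 with TAC was 0.46 in dKO and 0.24 in control. The genes that rose were Mob1b, which encodes a LATS coactivator, and Fat1, an atypical cadherin upstream of the pathway. Mob1b had 67.9, 34.5 and 69.9 CPM in dKO TAC, against 12.9, 27.2 and 24.6 CPM in dKO sham, a log2 change of 1.41 (edgeR adjusted p 0.0175). Fat1 had 95.7, 36.2 and 84.0 CPM in dKO TAC, against 7.68, 25.3 and 23.4 CPM in dKO sham, a log2 change of 1.93 (edgeR adjusted p 0.0396). The lowest value of each group was that of the library that stood apart. Excluding those libraries, 5 of the 17 rose in dKO: Mob1b, Fat1, Stk4, which encodes MST1, Wwc2 and Taok1, which encodes an upstream kinase. Of all genes, 5.93% were then called higher and 4.66% lower. In control 1 of the 17, Fat1, was then called higher, beside 3.36% of all genes higher and 1.81% lower. Leaving out 1 library at a time, Fat1 lost its call in dKO in 9 of 12 fits, all but those without control TAC replicate 1, control TAC replicate 3 or dKO TAC replicate 2, with edgeR adjusted p up to 0.157. Mob1b lost it without dKO TAC replicate 1 or 3, with edgeR adjusted p up to 0.0817.

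Among 12 genes listed as inhibitors and scaffolds of YAP and TAZ, 2 rose and none fell after TAC in dKO. This stands beside the same 4.2% and 3.19% of all genes. The list does not hold inhibitors only, so a rise in it has no fixed sign for the pathway. Amot, which encodes angiomotin, had 24.5, 13.3 and 29.5 CPM in dKO TAC, against 4.18, 10.8 and 11.1 CPM in dKO sham. Strn, which encodes striatin, a subunit of the phosphatase complex that dephosphorylates MST kinases, had 82.8, 39.4 and 87.6 CPM in dKO TAC, against 12.6, 35.6 and 32.9 CPM in dKO sham. The log2 changes were 1.35 for Amot and 1.37 for Strn (edgeR adjusted p 0.0398 and 0.0414). Leaving out 1 library at a time, the call was lost in 8 of 12 fits for Amot and 9 of 12 for Strn. Both held without control TAC replicate 1, dKO sham replicate 3 or dKO TAC replicate 2, and Amot also without control TAC replicate 3. Excluding both libraries that stood apart, the edgeR adjusted p was 0.00648 for Amot and 0.00299 for Strn, and Csnk1e, a casein kinase gene, was then called lower as well. The median log2 change of the 12 with TAC was 0.12 in dKO and 0.13 in control. In dKO against control after TAC none of the 12 or of the 17 upstream and kinase genes passed the test with edgeR or DESeq2. An unadjusted edgeR p under 0.05 was found for 2 and 1 of them, beside 1305 of all 14712 genes. Without the libraries that stood apart Limd1, Strn and Mob1b were called higher in dKO, beside 2.37% of all genes. In control none of the 12 passed the test with edgeR or DESeq2, and 0 had an unadjusted p under 0.05 with edgeR.

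The other TEAD genes were lower than Tead1. Per kilobase of exon Tead3 had 1.62 to 2.81 RPKM over the 12 libraries, Tead2 0.667 to 2.48 RPKM and Tead4 0.376 to 2.37 RPKM, below the lowest Tead1 value of 3.76 RPKM. None of the 3 was called in any comparison. Of the vestigial-like cofactors, Vgll1 and Vgll2 were too low to test. Vgll3 had 5.51, 3.68 and 4.85 CPM in dKO TAC, against 0.184, 1.01 and 1.47 CPM in dKO sham, a log2 change of 2.34 (edgeR adjusted p 0.0392). Excluding the libraries that stood apart, its log2 change was 2.06 and its edgeR adjusted p 0.0589, and leaving out 1 library at a time it lost the call in 8 of 12 fits. It held without dKO sham replicate 3, control TAC replicates 1 or 3 or control sham replicate 2. Its control values were 1.65, 3.70 and 6.17 CPM after TAC, against 0.960, 2.27 and 0.930 CPM after sham, which overlapped.

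Of 17 further YAP-TEAD targets tested, 3 rose and 1 fell after TAC in dKO, and 1 rose in control. Of all genes, 4.2% were called higher and 3.19% lower in dKO, and 1.9% higher and 0.347% lower in control. Excluding the libraries that stood apart, 3 of the 17 rose and 2 fell in dKO, where Arhgef17 joined Gadd45a among those lower, and 1 rose and 2 fell in control, where F3 and Gadd45a were lower. The median log2 change of the 17 with TAC was 0.43 in dKO and 0.15 in control, against -0.0062 and 0.0006 over all genes. Ankrd1, which encodes a muscle ankyrin repeat protein induced by load, had 5631, 5537 and 4843 CPM in dKO TAC, against 495, 472 and 554 CPM in dKO sham. In control it had 1966, 3390 and 2568 CPM after TAC, against 695, 537 and 1128 CPM after sham. The groups were apart in both genotypes, and Ankrd1 rose by 3.40 on the log2 scale in dKO and by 1.75 in control (edgeR adjusted p 0.000416 and 0.0166). The call in control was lost without control TAC replicate 2 or either of control sham replicates 1 and 3, with edgeR adjusted p up to 0.108. The interaction for Ankrd1 was 1.65 with an edgeR adjusted p of 0.841.

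Tgfb2, a ligand of the TGF-beta family, had 45.6, 33.5 and 48.7 CPM in dKO TAC, against 3.56, 7.37 and 6.66 CPM in dKO sham, and rose by 2.85 (edgeR adjusted p 0.00394). Control hearts had 6.74, 19.3 and 20.9 CPM after TAC, against 6.17, 7.49 and 4.76 CPM after sham, and overlapped through control TAC replicate 1. Nt5e, which encodes the ectonucleotidase CD73, had 74.2, 27.4 and 55.4 CPM in dKO TAC, whereas no library of the other 3 groups exceeded 23.3 CPM. Nt5e rose by 1.95 after TAC in dKO (edgeR adjusted p 0.00747). It was also the 1 target of 17 called in dKO against control after TAC, at 1.75 (edgeR adjusted p 0.0457), a call lost in 10 of 12 fits that left out 1 library, with edgeR adjusted p up to 0.216, and held only without dKO TAC replicate 2 or dKO sham replicate 1; without both it was 2.06 (edgeR adjusted p 0.00549). In the interaction none of the 17 passed edgeR's test, and 3 had an unadjusted p under 0.05, beside 697 of all 14712 genes. DESeq2 called 1 of the 17 in the interaction, Nt5e. Gadd45a, a stress-response gene, had 4.74, 7.20 and 5.50 CPM in dKO TAC, against 33.6, 12.9 and 12.6 CPM in dKO sham, and fell by 1.75 (edgeR adjusted p 0.0253). Its highest value was in dKO sham replicate 1, and without the libraries that stood apart it fell by 1.32 (edgeR adjusted p 0.0421). Its call in dKO was lost without dKO sham replicate 1, dKO TAC replicate 1 or dKO TAC replicate 3.

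**Figure D5:**
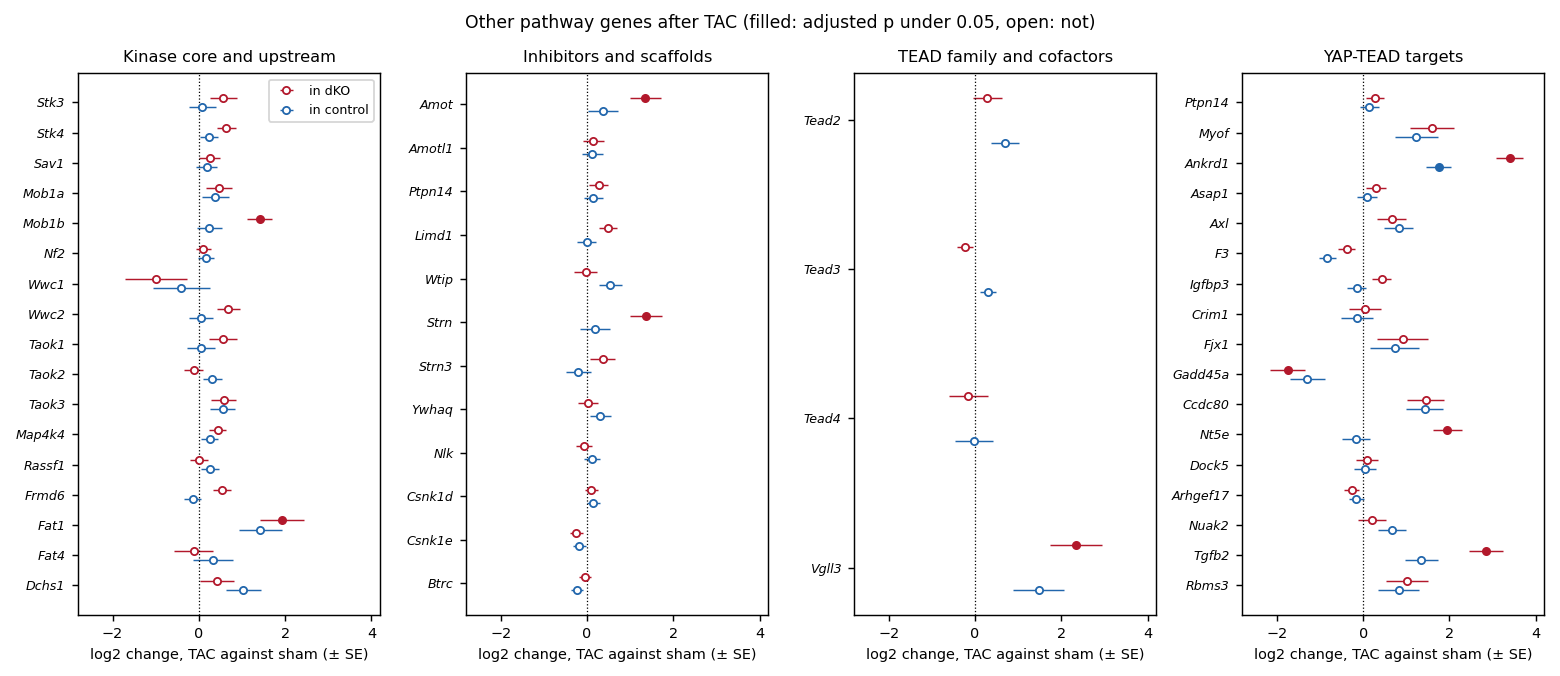
Each panel is a list of further Hippo genes, with the log2 change of TAC against sham on the x axis (± SE) in dKO (red) and control (blue), filled where the adjusted p was under 0.05. Filled red points are Mob1b, Fat1, Amot, Strn, Vgll3, Ankrd1, Nt5e, Tgfb2 and Gadd45a, of which Gadd45a lies left of 0, and the filled blue point is Ankrd1.

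Averaged over the genotypes, 6 of the 17 targets rose and 2 fell after TAC, beside 9.53% of all genes higher and 7.08% lower. Excluding the libraries that stood apart, 5 rose and 3 fell, beside 11.9% and 9.98%. The median of the 17 was 0.43 on the log2 scale against -0.0063 over all genes. Besides Ankrd1, Tgfb2, Nt5e and Gadd45a, the calls included Ccdc80, a matrix protein gene, at 1.44, Myof, a membrane-repair ferlin gene, at 1.41, and F3, the tissue factor gene, at -0.61 (edgeR adjusted p 0.00915, 0.0188 and 0.0128). The remaining one was Axl, a receptor kinase gene chosen for naming after its values were seen, at 0.74 with an edgeR adjusted p of 0.0482, which became 0.0770 without the libraries that stood apart and exceeded 0.05 in 9 of 12 fits that left out 1 library, all but those without dKO sham replicate 3, control TAC replicate 1 or control sham replicate 2. The call of Myof was lost without control TAC replicate 3 or either of control sham replicates 1 and 3, and that of Nt5e without dKO TAC replicate 1, without replicate 2 or 3 of control TAC or without control sham replicate 1. The fibroblast marker sum was higher after TAC in both genotypes, as given above with Ctgf. Ccdc80 had 51.2, 96.9 and 237 CPM in the control TAC libraries, which is the order of their fibroblast sums, and the part of fibroblast RNA in it was not tested. Of the other pathway lists, Mob1b at 0.82 and Fat1 at 1.68 rose among the 17 upstream and kinase genes, Amot at 0.86 among the 12 inhibitors and scaffolds, and Vgll3 at 1.90 among the 4 TEAD family genes tested (edgeR adjusted p 0.0192, 0.00861, 0.0346 and 0.0111). Leaving out 1 library at a time, the averaged call of Amot was lost in 7 of 12 fits, with edgeR adjusted p up to 0.0839, and held only without control TAC replicate 1, dKO TAC replicate 2 or any 1 of the dKO sham libraries. That of Mob1b was lost without control sham replicate 3 or dKO TAC replicate 1, with edgeR adjusted p up to 0.0533, and those of Fat1 and Vgll3 held in all 12. Excluding both libraries that stood apart, 6 of the 17 upstream and kinase genes rose and none fell, 2 of the 12 inhibitors and scaffolds rose and 1 fell, and 1 of the 4 TEAD family genes rose.

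Among the remaining cell type lists, no gene of the 8 endothelial, 8 pericyte and smooth muscle, 8 macrophage and 4 epicardial markers was called by edgeR after TAC in either genotype. In that order, 2, 3, 0 and 0 had an unadjusted p under 0.05 in dKO, beside 4064 of all 14712 genes. In control 0, 1, 6 and 2 had such a p, beside 2480 of all 14712 genes. DESeq2 called 1 of these markers, Kcnj8, lower in dKO. In TAC averaged over the genotypes, edgeR called Adgre1 and Tagln higher, at 1.25 and 1.30 (edgeR adjusted p 0.0357 and 0.0300). It called Kcnj8 and Abcc9 lower there, at -0.87 and -0.77 (edgeR adjusted p 0.0192 and 0.0468). In that comparison 9.53% of all genes were called higher and 7.08% lower. Excluding the libraries that stood apart, edgeR called 3 endothelial markers lower in dKO, Emcn, Tek and Tie1. It also called 2 genes of the pericyte and smooth muscle list lower in dKO, Kcnj8 and Abcc9. In control it called none of these markers. Of all genes, 4.66% were then called lower in dKO and 1.81% in control. The macrophage markers summed to 242 to 432 CPM in dKO TAC, against 229 to 280 CPM in dKO sham, and to 207 to 630 CPM in control TAC, against 149 to 310 CPM in control sham. The endothelial markers summed to 734 to 1104 CPM in dKO TAC, against 708 to 1479 CPM in dKO sham, and to 1064 to 1422 CPM in control TAC, against 927 to 1392 CPM in control sham. Endothelial cells also express Yap1, Wwtr1, Cyr61 and Amotl2, and the part of their RNA in these levels was not tested.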

How the data were processed

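Raw counts of reads were deposited by the authors as a whole number per gene and library. Trimmomatic 0.36, STAR 2.5.2b, featureCounts of Subread 1.5.0p3 and the GRCm38.p5 genome are named in the submitters' processing notes. Settings, annotation and strand handling are not stated there. Per the labels' protocols, cardiomyocytes came from Langendorff perfusion and sedimentation, and 200 ng of RNA went into a stranded poly(A) kit read as single ends of 100 nt.

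All 12 libraries entered 1 edgeR 4.0.16 fit (R 4.3.3) with TMM scaling and the filterByExpr rule by group. It had 1 mean for each group, which left 8 residual degrees of freedom. Quasi-likelihood F tests of 7 comparisons were adjusted by Benjamini-Hochberg over 14712 genes, with 0.05 as the threshold. Intervals use an SE derived from the log2 change and the F value. DESeq2 1.42.0, limma 3.58.1 and other settings were alternatives. Identifiers, coordinates and exon lengths came from GENCODE mouse release 21, promoters from RefSeq and shared sequence from blastn 2.17.0. No 2 libraries were found to be the same one deposited again. The steps were tested on simulated counts.

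The 10 genes and the gene lists were chosen with earlier results of these data known. The text names all 10 genes, Mkl1, Mkl2, the TEAD genes, up to 6 called genes with the smallest p per pathway list and comparison, the most abundant genes of a marker list, and the 3 genes most like Ctgf.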

Additional observations from a re-analysis of the deposited data

How the results depend on the processing

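With 3 libraries per group and the 2 that stood apart, the number of calls moved with the setting, while at these depths all 10 genes lay far above the floor of 3 counts. The call of Ctgf averaged over genotypes was kept under every alternative run, with adjusted p up to 0.0117 when 1 library was left out. For the 10 genes, no call in dKO against control appeared under any alternative. Where a call was gained, or a direction turned, the cause was not tested. In TAC against sham in control the number of the 10 genes called was 1 rather than 0 with DESeq2, without the filter on low counts (Ctgf in both), with a length offset, with that offset and the replicate block, and excluding the 2 libraries (Amotl2 in these 3), and 0 to 1 leaving out 1 library. In dKO it was 0 to 1 leaving out 1 library. Averaged over genotypes it was 2 with the length offset, 2 with the offset and the block, 3 excluding the 2 libraries and 1 to 2 leaving out 1 library.

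The number of all genes called for TAC in control was 331, against 1005 with DESeq2, 175 with limma-voom, 936 without the filter, 771 excluding the 2 libraries, 2 with only the groups compared and 2 to 1130 leaving out 1 library. For TAC in dKO it was 1087, against 2376 with DESeq2, 1580 excluding the 2 libraries, 647 with only the groups compared and 210 to 1389. For dKO after sham it was 10, against 62 with DESeq2, 53 without the filter, 5 with only the groups compared and 5 to 12. For dKO after TAC it was 63, against 320 with DESeq2, 129 without the filter, 118 with the length offset, 508 excluding the 2 libraries and 8 to 252. For the interaction it was 0, against 8 with DESeq2, 5 without the filter, 1 with the length offset, 2 excluding the 2 libraries and 0 to 1. Averaged over genotypes the range leaving out 1 library was 1322 to 3074. For dKO averaged over surgeries it was 86, against 348 with DESeq2, 174 without the filter, 198 excluding the 2 libraries and 38 to 153. Of the 17 further YAP-TEAD targets, DESeq2 called 5 higher and 1 lower after TAC in dKO, and 3 higher and 2 lower in control.

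The replicate numbers showed no clear pairing of the samples: of 18 pairs with the same number 9 correlated above 0.1, with r from -0.474 to 0.35. The 36 pairs with different numbers had r from -0.46 to 0.434. With 3 libraries per group and 2 libraries that stood apart, these correlations cannot exclude a pairing. The replicate block gave 41 genes called for dKO after TAC, against 63 without it, and changed no call of the 10 genes. It turned 4 uncalled values: Ajuba 0.0155 in dKO after sham, Tead1 -0.0146 and Cyr61 0.046 in dKO after TAC, and Lats2 0.0003 in the interaction. With the length offset and the block Cyr61 turned to 0.13 for TAC in dKO, Lats1 to -0.052 in the interaction and Yap1 to 0.13 in dKO averaged over surgeries.

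All other log2 changes that turned were uncalled too. With limma-voom these were Ajuba 0.0154 after sham, Tead1 -0.066 and Cyr61 0.0227 after TAC, and Lats2 0.0282 in the interaction. Lats1 in the interaction turned to -0.0027 with RLE size factors, -0.0015 with DESeq2, -0.088 with the length offset and -0.13 excluding the 2 libraries. The length offset turned Lats2 to -0.072 and Cyr61 to 0.12 for TAC in dKO, and Yap1 to 0.13 and Ctgf to -0.079 in dKO averaged over surgeries. Excluding the 2 libraries turned Vgll4 to -0.20 and Lats2 to -0.31 for TAC in dKO, Wwtr1 to 0.020, Vgll4 to 0.16 and Ajuba to 0.047 for dKO after sham, and Wwtr1 to -0.11 in the interaction. It also turned Lats2 to -0.077 for averaged TAC, and Yap1 to 0.14, Tead1 to 0.045, Ctgf to -0.073 and Amotl2 to 0.060 for averaged dKO.

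Leaving out 1 library turned further uncalled values, here given as ranges. For TAC in control Ajuba ran over -0.20 to 0.13 and Cyr61 over -0.68 to 0.10. For TAC in dKO Amotl2 ran over -0.28 to 0.044, Cyr61 over -0.30 to 0.069, Lats1 over -0.069 to 0.45, Lats2 over -0.37 to 0.35 and Vgll4 over -0.20 to 0.40. For dKO after TAC Ajuba ran over -0.29 to 0.062, Cyr61 over -0.24 to 0.37 and Tead1 over -0.23 to 0.34. For dKO after sham Ajuba ran over -0.11 to 0.17, Cyr61 over -0.43 to 0.16, Vgll4 over -0.42 to 0.16 and Wwtr1 over -0.40 to 0.021. In the interaction Ajuba ran over -0.29 to 0.060, Cyr61 over -0.18 to 0.61, Lats1 over -0.30 to 0.22, Lats2 over -0.52 to 0.19 and Wwtr1 over -0.22 to 0.21. For averaged TAC Cyr61 ran over -0.37 to 0.0154 and Lats2 over -0.11 to 0.26. For averaged dKO Ajuba ran over -0.14 to 0.038, Amotl2 over -0.14 to 0.012, Ctgf over -0.21 to 0.48, Cyr61 over -0.23 to 0.073 and Yap1 over -0.076 to 0.081.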
